A study of Mus musculus with 6 samples.

Results

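The genes described here are the 4 platelet-derived growth factor (PDGF) ligands (Pdgfa, Pdgfb, Pdgfc and Pdgfd), the receptor gene Pdgfra and 5 further marker genes of resident cardiac fibroblasts (Tcf21, Gsn, Dpep1, Thy1 and Pi16). They were taken by gene symbol, and all 10 were found among the 38293 genes of the count table. RNA-seq was performed on infarcted hearts, with 3 WT and 3 Zeb2 cKO libraries taken 14 days after permanent ligation of the left anterior descending coronary artery. Both groups were adult male mice on a backcrossed C57BL/6J background. According to the study's methods the group labelled WT carried the floxed Zeb2 alleles (Zeb2 fl/fl), and Zeb2 cKO mice carried the same alleles together with a Cre transgene under the murine Myh6 promoter, which is active in cardiomyocytes. Zeb2 was therefore deleted in cardiomyocytes, not in fibroblasts, and no group carried the Cre transgene without the floxed alleles. The labels do not say that each library came from its own mouse, so p-values measure the spread between these libraries. The labels place the tissue in the border region of the infarct, whereas the methods name the remote zone. Because RNA came from whole tissue, fewer fibroblasts and less RNA per fibroblast cannot be told apart in any value below.

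PDGFs are secreted dimers that signal through the receptor tyrosine kinases PDGFRα and PDGFRβ. The products of Pdgfa, Pdgfb and Pdgfc bind PDGFRα, which in the adult heart marks fibroblasts, whereas those of Pdgfb and Pdgfd bind PDGFRβ, the receptor of pericytes and smooth muscle cells. PDGF-C and PDGF-D are secreted as latent factors that proteases must cleave. After infarction, resident fibroblasts proliferate and turn into matrix-producing activated fibroblasts, and markers of the resting state are then set against markers of the activated state.

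Libraries held between 37.3 M and 51.1 M counts, of which 14.3 M to 19.0 M lay outside the mitochondrially encoded genes. CPM below are counts after scaling all libraries to a common size (TMM, edgeR), listed in replicate order. WT replicate 2 stood apart from the other libraries: 1823 of the 14746 tested genes were more than 2-fold from the median of the 6 libraries there, against 98 to 222 genes in each of the others. All 16 cardiomyocyte markers were detected, and their summed level was 39640 CPM in WT replicate 2 and 63065 to 77137 CPM elsewhere. Activated fibroblast genes summed to 11939 CPM in that library and to 1577 to 2829 CPM elsewhere, and 16 macrophage genes to 1141 CPM against 269 to 373 CPM. Fold changes of the 10 genes, and medians of lists where printed, are therefore given with and without WT replicate 2. Zeb2 itself was at 61.3, 116 and 71.9 CPM in WT and 59.6, 72.6 and 66.5 CPM in Zeb2 cKO hearts, with overlapping groups and a log2 fold change of -0.33 (standard error 0.25), which was -0.0058 without WT replicate 2. These counts hold Zeb2 transcripts of every cell type in the tissue.

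Promoter windows reach from 250 bases before to 50 bases after a RefSeq start site (GRCm38.p6), and 8 of the 10 genes had at least 1 window. The windows were searched on both strands for CACCTG, the E-box bound by ZEB proteins, which reads CAGGTG on the other strand. It was found in 1 of the 11 windows, an internal start site of Gsn, beside 20.2% of all 32851 windows. In that window the match begins 41 bases before the start site. A match of these letters is no evidence of binding. The Gsn window is shown because it holds the match, in capitals, and those of Pdgfra and Pdgfd because these 2 genes had the most similar profiles over the libraries among all pairs of the 10. All 3 lie on the plus strand: Gsn at chr2:35266494-35266793, Pdgfra at chr5:75152001-75152300 and Pdgfd at chr9:6168236-6168535.
Gsn: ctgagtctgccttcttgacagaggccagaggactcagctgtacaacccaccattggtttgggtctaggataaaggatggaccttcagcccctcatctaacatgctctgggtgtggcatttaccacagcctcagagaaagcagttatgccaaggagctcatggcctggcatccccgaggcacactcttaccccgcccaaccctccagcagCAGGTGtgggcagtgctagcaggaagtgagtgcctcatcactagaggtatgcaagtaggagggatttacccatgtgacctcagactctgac
Pdgfra: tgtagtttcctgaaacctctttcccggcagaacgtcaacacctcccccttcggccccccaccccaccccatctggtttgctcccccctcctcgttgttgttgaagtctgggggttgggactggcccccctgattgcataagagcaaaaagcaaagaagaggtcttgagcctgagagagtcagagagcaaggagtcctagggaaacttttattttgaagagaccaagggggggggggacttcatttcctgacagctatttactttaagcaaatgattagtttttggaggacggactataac
Pdgfd: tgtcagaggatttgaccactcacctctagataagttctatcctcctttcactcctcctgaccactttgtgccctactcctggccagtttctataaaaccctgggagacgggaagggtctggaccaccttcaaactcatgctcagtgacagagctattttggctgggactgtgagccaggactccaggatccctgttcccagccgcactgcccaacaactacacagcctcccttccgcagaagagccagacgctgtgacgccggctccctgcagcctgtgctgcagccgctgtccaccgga

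Levels of different genes were compared as CPM per kilobase of exons. Gsn was by far the most abundant, at 176 ± 45.5 CPM per kb (mean ± SD, n = 6 libraries), 13.5 to 19.9 times the next gene, Dpep1, in each library. Dpep1 (10.3 ± 4.28), Pi16 (8.01 ± 2.39) and Pdgfra (5.71 ± 2.40 CPM per kb) followed. Pdgfra was above Pdgfd (3.93 ± 1.40) in 6 of 6 libraries, but Pdgfd was above Pdgfb (3.58 ± 0.934) in only 3 of 6, so the order of these 2 ligands was not resolved. Pdgfa (2.54 ± 0.116), Thy1 (1.48 ± 0.640) and Tcf21 (1.15 ± 0.871 CPM per kb) came next. Dpep1 over Pi16, Pdgfb over Pdgfa, Pdgfa over Thy1 and Thy1 over Tcf21 each held in 5 of 6 libraries, with WT replicate 3 reversing the first of these pairs and WT replicate 2 the other 3. Pdgfc was the lowest in every library, at 0.446 ± 0.215 CPM per kb. With the longest transcript as length, Pi16 moved above Dpep1 and Pdgfb above Pdgfd, and the other 6 genes kept their rank.

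**Figure D1:**
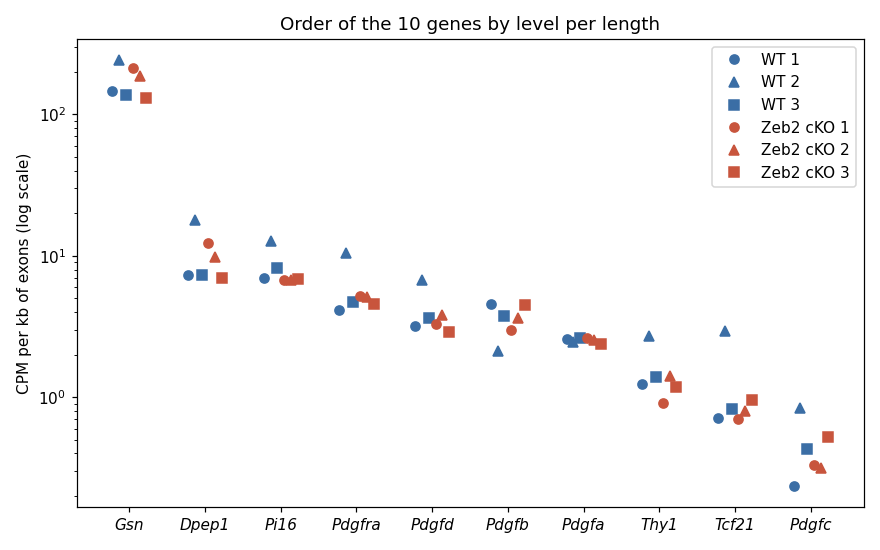
Level of each gene in each library as CPM per kb of exons (vertical axis, log scale), ordered by mean, with WT libraries in blue, Zeb2 cKO libraries in red and the replicate given by the shape of the symbol. Gsn lies above 100 CPM per kb in every library and Pdgfc below 1, and WT replicate 2 (blue triangle) is the highest point of 8 genes.

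Pdgfra (ENSMUSG00000029231, chromosome 5 of GRCm38, 75152292 to 75198215, plus strand) encodes the receptor whose expression defines cardiac fibroblasts in most reporter lines. It was at 41.3, 106 and 47.1 CPM in WT and at 52.3, 51.1 and 45.8 CPM in Zeb2 cKO hearts. WT replicate 2 was more than 2 times any other library, and the other 5 differed by at most 1.27-fold. In edgeR's quasi-likelihood fit the log2 fold change of Zeb2 cKO over WT was -0.38 ± 0.35 (standard error) with a 95% interval from -1.21 to 0.46 and a Benjamini-Hochberg adjusted p of 0.957. Without WT replicate 2 it was 0.17, with an interval from -0.078 to 0.43. Exons of 2 genes annotated on the opposite strand overlap Pdgfra, and neither was in the count table.

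Among the ligands, Pdgfa (ENSMUSG00000025856, chromosome 5, 138976014 to 138997370, minus strand), which encodes a ligand of PDGFRα only, was the steadiest of the 10 genes. Its level was 8.12, 7.61 and 8.23 CPM in WT and 8.23, 7.95 and 7.35 CPM in Zeb2 cKO hearts, a range of 1.12-fold over all 6 libraries. Only 2.09% of the 14722 tested genes with counts in every library had a range as narrow. The groups overlapped, with a log2 fold change of -0.026 (95% interval -0.29 to 0.24), and of -0.057 (-0.31 to 0.19) without WT replicate 2. Exons of 6330403L08Rik on the opposite strand share 813 bases with Pdgfa. Since the strand option of the counting is not given in the sources used here, reads of that stretch could belong to either gene, and 6330403L08Rik was at 9.11, 4.35 and 6.69 CPM in WT and 8.09, 8.09 and 7.26 CPM in Zeb2 cKO hearts.

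Pdgfb (ENSMUSG00000000489, chromosome 15, 79995874 to 80014977, minus strand), whose product endothelial cells and platelets release, was, alone among the 10 genes, lowest in WT replicate 2. It was at 19.0, 8.80 and 15.6 CPM in WT and at 12.4, 15.1 and 18.7 CPM in Zeb2 cKO hearts. The groups overlapped, and the log2 fold change was 0.089 (95% interval -0.61 to 0.79), and -0.17 (-0.60 to 0.26) without WT replicate 2. The 16 endothelial markers summed to 1162, 882 and 1112 CPM in WT and to 1018, 1172 and 1222 CPM in Zeb2 cKO hearts, so that their lowest and second lowest libraries were those of Pdgfb. The platelet list, of which 3 of 10 genes passed the filter on low counts and none was at 0 in all libraries, summed to 5.44 to 9.05 CPM in WT and 6.20 to 8.99 CPM in Zeb2 cKO hearts. The part of these cells in the Pdgfb values was not tested.

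Pdgfc (ENSMUSG00000028019, chromosome 3, 81036416 to 81214040, plus strand), a latent ligand of PDGFRα, had only 45 to 186 counts per library. Its level was 1.19, 4.24 and 2.19 CPM in WT and 1.70, 1.61 and 2.68 CPM in Zeb2 cKO hearts. WT held both the lowest and the highest library, and the other 5 libraries still differed by 2.24-fold without WT replicate 2. Its log2 fold change was -0.35 with an interval from -1.44 to 0.74, and changed sign to 0.25 (-0.53 to 1.03) without WT replicate 2. An antisense gene, Gm16000, covers 4.20% of the longest Pdgfc transcript and had 0 counts in all libraries.

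Pdgfd (ENSMUSG00000032006, chromosome 9, 6168584 to 6378850, plus strand), a latent ligand of PDGFRβ, was at 10.1, 21.1 and 11.4 CPM in WT and at 10.5, 12.1 and 9.17 CPM in Zeb2 cKO hearts. Over all 6 libraries its profile was nearest to that of Pdgfra. The root mean square difference of their log2 profiles, each centred on its own mean, was 0.136, the smallest of the 45 pairs. Pdgfd and Pi16 came next at 0.145. Pdgfra and Pdgfd shared a peak in WT replicate 2, at 0.97 and 0.83 above their means. Among the other 5 libraries Pdgfra was highest in Zeb2 cKO replicate 1 and lowest in WT replicate 1. Pdgfd was highest there in Zeb2 cKO replicate 2 and lowest in Zeb2 cKO replicate 3. For Pdgfd the log2 fold change was -0.43 (95% interval -1.12 to 0.26), and -0.023 (-0.35 to 0.31) without WT replicate 2.

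**Figure D2:**
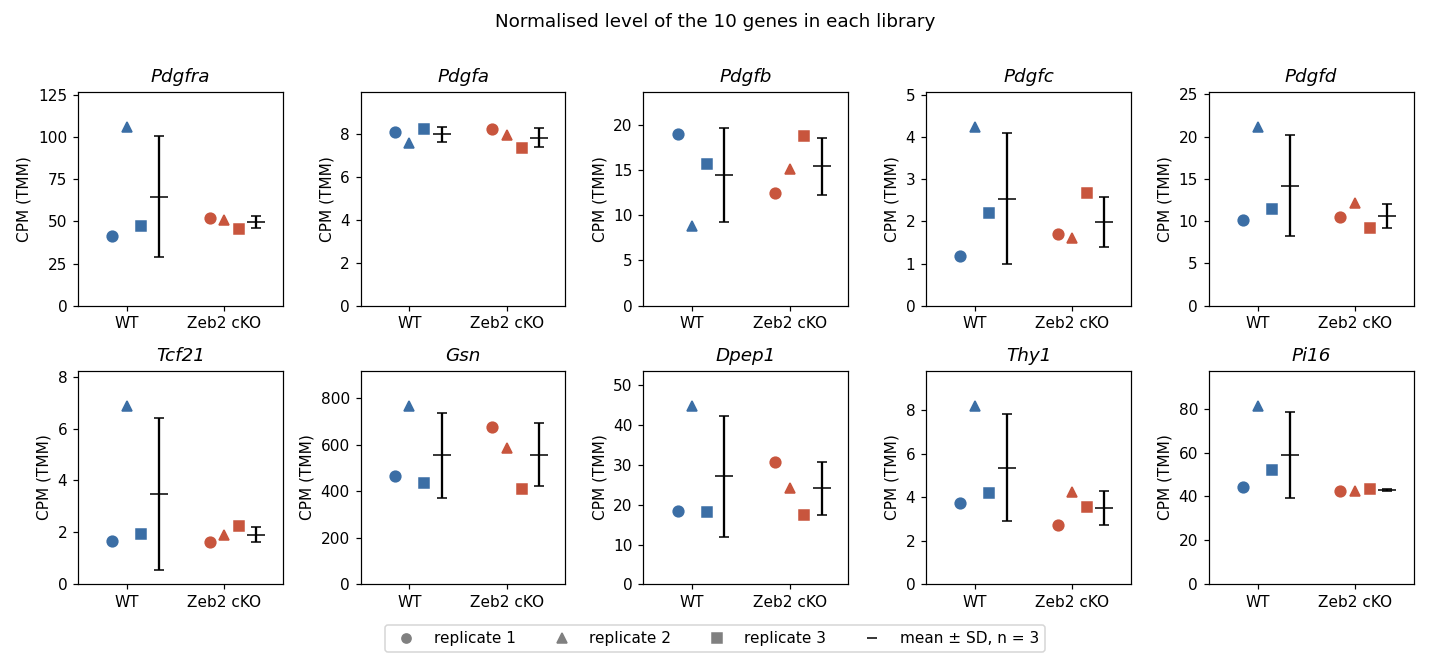
TMM-normalised CPM (vertical axes, from 0) of the 10 genes in each library, with the shape of the symbol giving the replicate and the mean ± SD of 3 libraries as the bar. WT replicate 2 is the highest library for 8 genes, the lowest for Pdgfb and inside the range for Pdgfa, and Pi16 is the only gene whose groups do not overlap.

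The mix of ligands was followed as the share of each in the summed counts per kilobase of the 4 genes, a value that does not depend on normalisation. Pdgfd made up 30.2, 55.4 and 34.7% in WT and 35.8, 37.2 and 28.3% in Zeb2 cKO hearts. Pdgfb made up 43.0, 17.5 and 35.9% in WT and 32.0, 35.1 and 43.7% in Zeb2 cKO hearts. In WT replicate 2 Pdgfd thus exceeded Pdgfb 3.17-fold, whereas in the other 5 libraries the ratio lay between 0.648 and 1.12. Pdgfa held between 20.2 and 28.5% and Pdgfc between 2.21 and 6.89%. The mean difference between Zeb2 cKO and WT hearts was 4.80 percentage points for Pdgfb (exact permutation test, two-sided p = 0.800, the adjusted p over the 4 shares being 0.800) and -6.35 for Pdgfd (exact permutation p = 0.700). It was 2.03 for Pdgfa (exact permutation p = 0.5) and -0.475 for Pdgfc (exact permutation p = 0.800). All 4 shares overlapped between the groups, and 3 libraries against 3 cannot give a p under 0.1. Without WT replicate 2 the differences were -2.53 points for Pdgfb, 1.31 for Pdgfd and 0.766 for Pdgfc, each opposite in sign, and 0.455 for Pdgfa.

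**Figure D3:**
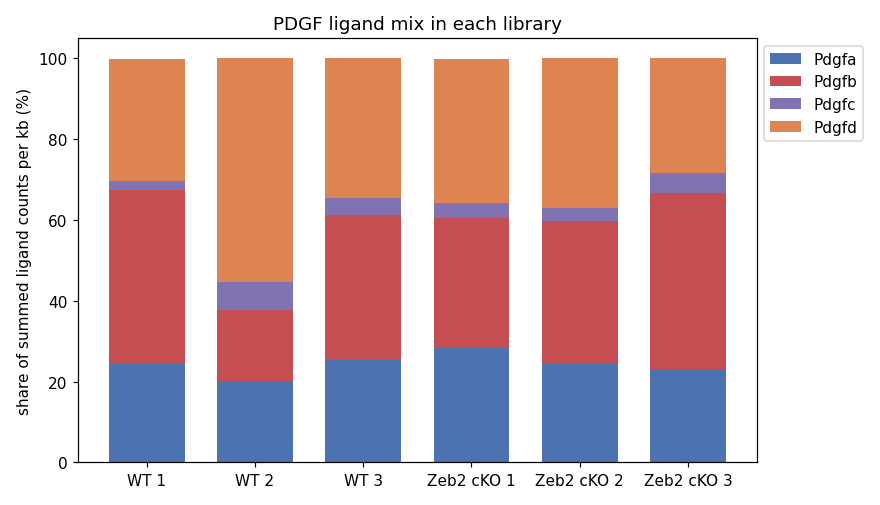
Share of each PDGF ligand in the summed ligand counts per kb (vertical axis, percent) in each library, as stacked bars. Pdgfd takes 55.4% in WT replicate 2 and 28.3 to 37.2% in the other 5 libraries, whereas Pdgfb takes 17.5% there and 32.0 to 43.7% in the others.

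Of the resident fibroblast markers, Tcf21 (ENSMUSG00000045680, chromosome 10, 22817281 to 22820174, minus strand), the transcription factor required for cardiac fibroblasts to form, differed most between libraries. It was at 1.67, 6.86 and 1.93 CPM in WT and at 1.64, 1.89 and 2.23 CPM in Zeb2 cKO hearts, so WT replicate 2 was 3.66 times the mean of the other 5. The other 5 libraries stayed within 1.36-fold. Its log2 fold change, -0.86 (standard error 0.55), was the lowest of the 10 genes and was 0.10 (95% interval -0.40 to 0.59) without that library. Tcf21 also marks epicardial derivatives. The mesothelium list, of which 8 of 10 genes were tested, summed to 9.04 to 19.5 CPM in WT and 12.2 to 14.0 CPM in Zeb2 cKO hearts, with none of its 9 matched genes at 0 in all libraries, and its part in the Tcf21 values was not tested. Its median log2 fold change was -0.047, and 0.96 without WT replicate 2, when 2 of the 8 genes had an unadjusted p under 0.05, both higher in Zeb2 cKO hearts (beside 1.55% of all genes), and the sums no longer overlapped.

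Gsn (ENSMUSG00000026879, chromosome 2, 35256380 to 35307892, plus strand), which encodes the actin-severing protein gelsolin, and Dpep1 (ENSMUSG00000019278, chromosome 8, 123186242 to 123201812, plus strand), a membrane dipeptidase, had the third most similar profiles of the 45 pairs (root mean square difference 0.186). Gsn was at 464, 765 and 435 CPM in WT and at 674, 587 and 410 CPM in Zeb2 cKO hearts. Dpep1 was at 18.3, 44.7 and 18.2 CPM in WT and at 30.6, 24.2 and 17.4 CPM in Zeb2 cKO hearts. For both, WT replicate 2 was highest and Zeb2 cKO replicates 1 and 2 came next, above WT replicates 1 and 3, whereas Zeb2 cKO replicate 3 was lowest. There were 22.0 to 25.3 Gsn counts per Dpep1 count in 5 libraries and 17.1 in WT replicate 2. Zeb2 cKO differed from WT by a log2 fold change of 0.0050 (95% interval -0.70 to 0.71) for Gsn and -0.17 (-1.11 to 0.77) for Dpep1. Without WT replicate 2 these became 0.31 (-0.17 to 0.79) and 0.40 (-0.10 to 0.91), the largest positive values among the 10 genes, and both intervals included 0.

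Thy1 (ENSMUSG00000032011, chromosome 9, 44043384 to 44048579, plus strand) encodes a glycoprotein on the surface of fibroblasts, T cells and neurons. It was at 3.72, 8.18 and 4.19 CPM in WT and at 2.72, 4.26 and 3.55 CPM in Zeb2 cKO hearts, with overlapping groups. Its log2 fold change was -0.61 (95% interval -1.41 to 0.18), and -0.17 (-0.65 to 0.31) without WT replicate 2. T cell markers were low: 3 of 14 passed the filter on low counts, none was at 0 in all libraries, and the list summed to 4.09 to 7.50 CPM in WT and 3.98 to 4.44 CPM in Zeb2 cKO hearts. Schwann cell and neuron markers, of which 8 of 13 were tested and none was at 0 in all libraries, summed to 38.5 to 91.9 CPM in WT and 40.5 to 45.5 CPM in Zeb2 cKO hearts. WT replicate 2 was the highest library for both sums, and their part in the Thy1 values was not tested.

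Pi16 (ENSMUSG00000024011, chromosome 17, 29317680 to 29330593, plus strand), which encodes a peptidase inhibitor found on adventitial fibroblasts, was the only gene of the 10 whose groups did not overlap. It was at 44.1, 81.1 and 51.9 CPM in WT and at 42.7, 42.6 and 43.4 CPM in Zeb2 cKO hearts. The 3 Zeb2 cKO libraries lay close together and just under the lowest WT library. Means of 3 libraries were 59.0 ± 19.5 CPM for WT and 42.9 ± 0.419 CPM for Zeb2 cKO (± SD), and the two-sided p of an exact permutation test was 0.1, the smallest these groups allow. By edgeR the log2 fold change was -0.46 ± 0.23 (standard error), with an unadjusted p of 0.0829 and an adjusted p of 0.957. It was -0.16 (95% interval -0.40 to 0.077) without WT replicate 2, with the groups still apart. An antisense gene that was not in the count table, AC162182.1, covers 5.63% of the longest Pi16 transcript.

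Across the 10 genes, edgeR called 0 between Zeb2 cKO and WT hearts at an adjusted p under 0.05, where 0% of the 14746 tested genes were called. None of the 10 had an unadjusted p under 0.05, which 280 of the tested genes (1.90%) had, 0.861% with lower and 1.04% with higher levels in Zeb2 cKO hearts, and DESeq2's Wald test also called 0 of the 10. In 8 of the 10 the log2 fold change was below 0, with a median of -0.36, where 51.4% of all tested genes were below 0 and their median was -0.0069. Without WT replicate 2, 5 of the 10 were below 0 and their median was 0.037, beside 49.1% of the 14966 genes tested then. Again 0 of the 10 had an unadjusted p under 0.05, beside 2.63% of all genes (1.08% lower and 1.55% higher). All 3 Zeb2 cKO libraries lay below all 3 WT libraries in 1 of the 10, Pi16, beside 2.97% of all tested genes. In 0 of the 10 did they all lie above, beside 3.39%. Without WT replicate 2 these counts were again 1 and 0, beside 7.46% and 8.07%. WT replicate 2 was the highest library for 8 of the 10, and for 35.2% of all tested genes. Its ratio to the mean of the other 5 was 2.22 for Pdgfra and Thy1, 2.26 for Pdgfc, 2.05 for Dpep1, 1.98 for Pdgfd, 1.81 for Pi16 and 1.49 for Gsn.

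**Figure D4:**
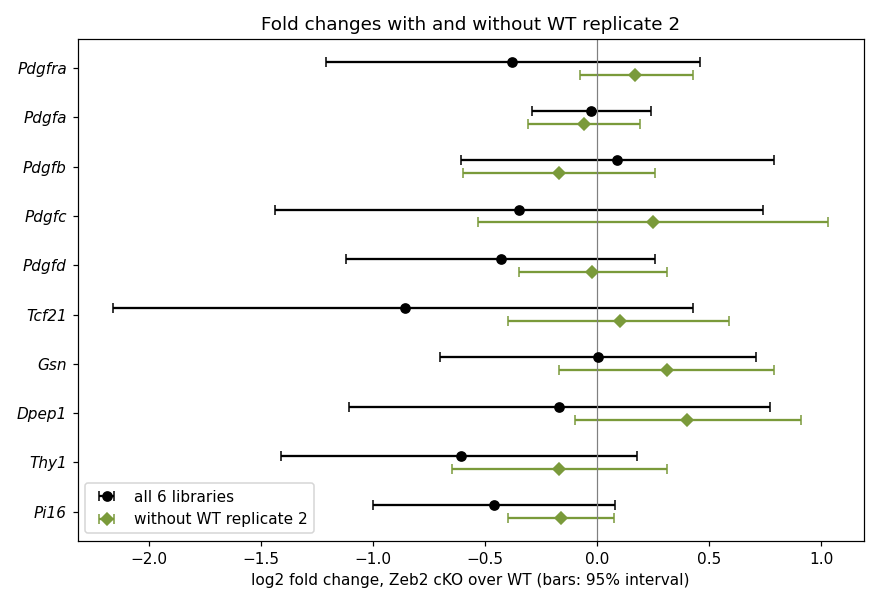
Log2 fold change of Zeb2 cKO over WT with its 95% interval (horizontal axis) for the 10 genes, from all 6 libraries (black circles) and without WT replicate 2 (green diamonds). Every interval includes 0, and 8 of the 10 black circles but 5 of the 10 green diamonds lie below 0.

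The other 9 genes were also set against Pdgfra within each library. With all 6 libraries, the log2 ratio to Pdgfra overlapped between the groups for all 9, and adjusted p-values over the 9 ratios were 0.720 to 1.00 (exact permutation tests, two-sided). There were 1.07, 0.767 and 1.10 Pi16 counts per Pdgfra count in WT and 0.815, 0.833 and 0.947 in Zeb2 cKO hearts. WT replicate 2 had the lowest of these ratios, although its Pi16 level was the highest. Without it, the Zeb2 cKO libraries were all below the other 2 WT libraries for Pi16 (difference of -0.33 on the log2 scale), Thy1 (-0.36), Pdgfa (-0.23) and Pdgfd (-0.20), and 2 against 3 libraries cannot give an exact permutation p under 0.200. Of all other tested genes, 22.1% also had a ratio to Pdgfra without overlap and lower in Zeb2 cKO hearts there, against 1.99% with a higher one. These ratios share their denominator, which was itself 0.17 higher on the log2 scale without WT replicate 2. With all 6 libraries the shares were 0.739% and 1.68%. For Pdgfb the ratio was 0.0832 in WT replicate 2 and 0.236 to 0.460 elsewhere, the widest range of the 9. Per kilobase, Pdgfra was at 0.287 to 0.455 times the level of Pdgfrb, the other PDGF receptor, with WT replicate 2 the highest at 0.455 and Zeb2 cKO replicate 1 next at 0.430.

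Genes of the activated state moved more than Pdgfra in WT replicate 2. Of 26 activated fibroblast genes 25 were highest there, and their mean log2 CPM stood 2.09 above the mean of the 6 libraries, against 0.97 for Pdgfra and 0.67 for a list of 30 other resident fibroblast genes. The log2 CPM of Pdgfra minus the mean of the activated genes was 0.90, -0.35 and 0.76 in WT and 1.61, 1.28 and 0.46 in Zeb2 cKO hearts. The groups overlapped (difference 0.68, exact permutation test, two-sided p = 0.300), and the difference was 0.29 without WT replicate 2. Among activated genes Lox, which crosslinks collagen, was at 14.4, 209 and 19.9 CPM in WT and 9.13, 10.9 and 21.6 CPM in Zeb2 cKO hearts. Its log2 fold change was -2.54 (edgeR, unadjusted p = 0.0460 and adjusted p = 0.957), and -0.30 without WT replicate 2. Ltbp2, a latent TGF-β binding protein gene, had a log2 fold change of -1.95, and of -0.45 without it. These were the 2 of the 26 genes with an unadjusted p under 0.05, beside 0.861% of all tested genes. Of the 26 genes, 25 had a log2 fold change below 0 (median -1.35), and 18 without WT replicate 2 (median -0.047).

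The other resident fibroblast genes did not pass the test either: 0 of 30 were called by edgeR at an adjusted p under 0.05, 0 at an unadjusted p under 0.05, and 23 had a log2 fold change below 0 (median -0.22). Without WT replicate 2 only 9 of the 30 were below 0 (median 0.16). The medians over all tested genes were -0.0069 with and 0.0025 without that library. Without it, 1 of the 30 had an unadjusted p under 0.05, higher in Zeb2 cKO hearts, beside 1.55% of all genes. With all 6 libraries, the gene of the list with the smallest p was Scara5, a ferritin receptor gene of adventitial fibroblasts. It was at 7.67, 5.10 and 7.47 CPM in WT and 13.7, 9.82 and 6.98 CPM in Zeb2 cKO hearts, a log2 fold change of 0.59 (edgeR, adjusted p = 0.957), and 0.43 without WT replicate 2. It was lowest in WT replicate 2, unlike Pi16. Mfap5, a microfibril gene, had the opposite sign, with a log2 fold change of -1.0 that was -0.19 without WT replicate 2.

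Of the 58 other genes of PDGF signalling, edgeR called 0, and 0 had an unadjusted p under 0.05. Of these, 38 had a log2 fold change below 0 with a median of -0.039, and in 37 with a median of -0.043 without WT replicate 2. Pdgfrb (ENSMUSG00000024620), the receptor of mural cells, was at 78.6, 127 and 68.5 CPM in WT and 66.5, 74.8 and 78.9 CPM in Zeb2 cKO hearts. Pdgfrb was highest in WT replicate 2, whereas the mural list to which it belongs summed to 1252 CPM there and to 1676 to 1913 CPM in the other 5 libraries. The proteases that activate latent ligands did not separate the groups. Plat, which cleaves PDGF-C, was at 18.5, 34.0 and 20.6 CPM in WT and 15.5, 18.3 and 21.6 CPM in Zeb2 cKO hearts. For Plau, which cleaves PDGF-D, the log2 fold change was -0.075, and 0.31 without WT replicate 2. For Furin, the proprotein convertase that processes PDGF-A and PDGF-B, it was -0.018, and -0.10 without that library.

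The 3 pathway genes with the smallest p were the receptor-like gene Pdgfrl, the endocytic receptor gene Lrp1 and Sparc, whose matrix protein binds PDGFs. Pdgfrl was at 1.83, 24.4 and 2.73 CPM in WT and 2.46, 1.54 and 3.67 CPM in Zeb2 cKO hearts, which placed WT replicate 2 at 9.99 times the mean of the other 5 libraries. Lrp1 and Sparc were 2.54 and 4.46 times that mean there. Their log2 fold changes were -1.92, -0.72 and -1.10 (edgeR, adjusted p = 0.957 for each), and 0.17, -0.17 and 0.019 without WT replicate 2.

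Lists of other cell types that could supply these transcripts did not pass the test, with 0 genes called by edgeR in each. Macrophages, a source of PDGFs in healing tissue, were followed with 16 genes, 15 of which had a log2 fold change below 0 (median -0.86, and -0.0018 without WT replicate 2). For mural cells 2 of 16 were below 0 (median 0.12), for endothelial cells 6 of 16 (0.14) and for cardiomyocytes 2 of 16 (0.16). These became, without WT replicate 2, 7 of 16 (0.00026), 7 of 16 (0.011) and 12 of 16 (-0.079). Of 8 adipocyte genes only 1, Cfd, passed the filter on low counts, and none was at 0 in all libraries. They summed to 0.387 to 1.01 CPM in WT and 1.17 to 3.32 CPM in Zeb2 cKO hearts, without overlap. Of all tested genes, 3.39% were without overlap and higher in Zeb2 cKO hearts. Cfd itself overlapped, at 0.292, 0.205 and 0.651 CPM in WT and 1.66, 0.576 and 0.540 CPM in Zeb2 cKO hearts. The part of these cell types in the values of the 10 genes was not tested.

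Genes outside all lists were ranked by how closely their profile over the 6 libraries followed that of Pdgfra, as the root mean square difference in centred log2 CPM. Among the closest were Cpxm2 (0.0282), a carboxypeptidase-like gene, Fkbp7 (0.0454), a prolyl isomerase of the endoplasmic reticulum, Rin2 (0.0524) and Smpd3 (0.0556), where the median over all tested genes was 0.492. Among the 10 genes, Pdgfd (0.136) and Pi16 (0.198) were nearest to Pdgfra and Pdgfb (0.812) was farthest. Cpxm2 was at 17.1, 46.0 and 20.1 CPM in WT and at 21.7, 22.0 and 19.8 CPM in Zeb2 cKO hearts. The profile of Pi16 was followed closely by Ifngr1 (0.0463), Zfp275 (0.0567), Cmpk1 (0.0607) and P2rx4 (0.0624), with a median of 0.400 over all tested genes. Zfp275 was at 10.1, 18.0 and 10.9 CPM in WT and 8.99, 8.96 and 9.98 CPM in Zeb2 cKO hearts, also without overlap of the groups. WT replicate 2 was the highest library of each of these 8 genes, as it was of Pdgfra and Pi16. This follows from their selection by profile and is no separate result.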

How the data were processed

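Ribosomal RNA-depleted, strand-specific libraries were sequenced by the authors as single-end reads of 75 bases, aligned, and counted per gene of Gencode M4 (GRCm38) with the STAR workflow. The table the authors deposited holds raw counts (the submitters' notes also list DESeq 1.2, whose output was not used here), and 0 columns were left unmatched to a sample. STAR's version, strand option and treatment of multi-mapped reads are not given in the sources used here. Symbols, positions and exon lengths came from Gencode M21 of the same build.

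Counts were normalised with TMM and filtered with filterByExpr in edgeR 4.0.16 (R 4.3.3), which left 14746 genes. Genotype was tested with glmQLFit and glmQLFTest, with Benjamini-Hochberg adjustment over these genes. Single values were compared with exact permutation tests (SciPy 1.17.1), whose smallest p is 0.1. Log2 CPM used a prior count of 2. Shared transcript stretches (at least 75 bases and 95% identity) were searched with BLAST 2.17.0. DESeq2 1.42.0 was run as an alternative, beside RLE size factors, other filters and libraries left out. Calls were tested on simulated data.

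The 10 genes and the lists were chosen with earlier results of these data known. Genes outside the 10 were named by a rule: Pdgfrb, Plat, Plau, Furin and the 3 pathway genes with the smallest p, the 2 genes of each other list with the smallest p, Zeb2, and the 5 genes nearest in profile to Pdgfra and to Pi16. Not all are printed, and 2 of those nearest in profile are not reported here. Replicate numbers occur in both groups, but no label says that a number marks a shared litter, batch or day, and a fit with the number as a block was run as 1 alternative only. Depth was 37.3 M to 51.1 M counts per library.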

Additional observations from a re-analysis of the deposited data

How the results depend on the processing

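The count of genes called stayed at 0 in every edgeR alternative, and DESeq2 called 1, Slc46a2 (log2 fold change 4.20, adjusted p = 0.0382). None of the 10 genes was called in any setting. Other normalisation, filters, tests and dispersions reversed the sign of 0 of the 10 fold changes. Leaving out 1 library at a time gave log2 fold changes of -0.62 to 0.17 for Pdgfra, -0.062 to 0.018 for Pdgfa, -0.17 to 0.34 for Pdgfb, -0.68 to 0.25 for Pdgfc, -1.19 to 0.10 for Tcf21, -0.16 to 0.31 for Gsn and -0.39 to 0.40 for Dpep1. Pdgfd, Thy1 and Pi16 stayed below 0. The differences in ligand share ran from -2.53 to 10.3 percentage points for Pdgfb, -1.57 to 0.766 for Pdgfc and -11.3 to 1.31 for Pdgfd, and those in the log2 ratio to Pdgfra from -0.23 to 0.49 for Pdgfa, -0.35 to 0.88 for Pdgfb and -0.24 to 0.21 for Pdgfc. Genes without overlap numbered 1 to 2 of the 10, Thy1 joining Pi16 without Zeb2 cKO replicate 2, where 5.28% of all tested genes were without overlap and lower. Without WT replicate 1, Pi16 and Thy1 had an unadjusted p of 0.0214 and 0.0459 (edgeR, adjusted p = 0.596 for both), beside 7.52% of all genes. The cause was not tested.

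Same-numbered libraries of the 2 groups had correlations of their deviations from the group means of 0.0878, -0.137 and -0.0869. Those of differently numbered libraries ran from -0.263 to 0.238, so these values cannot tell whether the numbers mark pairs. With the replicate number as a block, 0 genes were called, and Thy1 had an unadjusted p of 0.0434 (log2 fold change -0.55, adjusted p = 0.999 from edgeR), beside 1.68% of all genes. Counting error weighs on Pdgfc, at 45 to 186 counts per library.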
